A study of Homo sapiens with 4 samples.

Results

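The HOX genes encode homeodomain transcription factors that lie in 4 clusters, HOXA on chromosome 7, HOXB on chromosome 17, HOXC on chromosome 12 and HOXD on chromosome 2. Within a cluster all genes are read from the same strand and are numbered by paralog group, from group 1 at the 3′ end to group 13 at the 5′ end. Genes at the 3′ end pattern anterior parts of the embryo and genes at the 5′ end pattern posterior parts. HOX genes are the classic targets of opposing chromatin regulators: Polycomb proteins hold them silent, and trithorax group proteins keep them active. Brahma, the fly counterpart of BRG1, was found as a trithorax group gene through its effect on homeotic genes.

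SWI/SNF complexes remodel chromatin with BRG1 or BRM as their ATPase, and the HSA (helicase/SANT-associated) domain of BRG1 is a platform for other subunits. V5-tagged BRG1 (iBRG1) and BRG1 without the HSA domain (i∆HSA) were mapped by CUT&RUN, in which an antibody tethers a nuclease to a chromatin protein and the released DNA is sequenced, in stable lines made from SW-13 adrenocortical carcinoma cells, which do not express BRG1 or BRM. All 4 samples, 2 biological replicates per construct, held 300000 cells induced with doxycycline for 24 h and used the same antibody against V5. The sample titles name the deletion construct only as HSA, and it was read as i∆HSA from the study's methods. Cells given vehicle, and negative controls, were not analysed here.

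The members were 38 listed HOX genes of 20163 protein-coding genes, 10 each in HOXA and HOXB and 9 each in HOXC and HOXD. Peaks were taken from 20 kb before the first to 20 kb after the last listed gene of each cluster (the window), and a gene had a promoter peak when a peak came within 1 kb of any of its annotated transcript starts. The 4 windows held 7 of the 24212 iBRG1 peaks and 10 of the 25371 i∆HSA peaks. Each construct has 1 peak list with no value per replicate, so the values below have no replicate error and no test over samples could be made. The intervals given for counts and shares cover counting error only. The study's methods give a target for the read depth, and the depth reached is unknown. The deposited peak score is a whole number on an unstated scale, so scores were read only within a list. The study's methods name a minimum score of 5, but both lists hold lower scores, down to 0 in the iBRG1 list and 1 in the i∆HSA list. Scores of at least 5 were held by 6575 iBRG1 and 10440 i∆HSA peaks. The study reports fewer peaks for each construct than these lists hold, so the lists are not the peak sets it describes.

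Sequences of some HOX positions with peaks are given first, read from the plus strand of GRCh37 (hg19). Capitals mark matches to the motifs that were searched. The first 2 are the central 240 bases of stretches that both lists called, since such positions are few in the HOX windows. They lie between HOXA7 and HOXA9 (chr7:27200406-27200645) and upstream of HOXB13 (chr17:46808878-46809117).
between HOXA7 and HOXA9: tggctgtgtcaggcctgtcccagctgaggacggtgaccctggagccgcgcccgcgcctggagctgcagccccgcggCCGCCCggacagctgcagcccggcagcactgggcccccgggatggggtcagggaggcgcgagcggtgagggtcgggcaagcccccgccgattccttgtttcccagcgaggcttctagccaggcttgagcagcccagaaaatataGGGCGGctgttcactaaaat
upstream of HOXB13: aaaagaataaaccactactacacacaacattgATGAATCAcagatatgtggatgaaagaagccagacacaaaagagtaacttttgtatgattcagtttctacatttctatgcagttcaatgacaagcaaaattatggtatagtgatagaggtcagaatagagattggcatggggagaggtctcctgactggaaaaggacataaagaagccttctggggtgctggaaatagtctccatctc

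These stretches had little in common in base composition. The HOXA stretch was 68.8% GC with 19 CpG dinucleotides and held 2 SP/KLF matches (GGGCGG on either strand). The one upstream of HOXB13 was 38.8% GC with 0 CpG and 1 HOX-PBX match (TGATTNAT, the site type bound by HOX proteins with PBX partners). In the central 240 bases of all peaks the SP/KLF letters were found in 5.34% (iBRG1) and 6.31% (i∆HSA), and the HOX-PBX letters in 6.72% and 5.77%.

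The next sequences show i∆HSA peaks at HOX gene starts that iBRG1 peaks did not cover. The HOXB13 sequence is the centre of the i∆HSA peak over that gene's start (chr17:46807413-46807652). It is the same i∆HSA peak that holds the shared stretch upstream of HOXB13, and the bases printed here lie more than 1 kb upstream of the start. The HOXB4 sequence is the centre of the i∆HSA peak that spans the HOXB4 start and the miR-10a hairpin (chr17:46656416-46656655).
HOXB13 upstream, i∆HSA: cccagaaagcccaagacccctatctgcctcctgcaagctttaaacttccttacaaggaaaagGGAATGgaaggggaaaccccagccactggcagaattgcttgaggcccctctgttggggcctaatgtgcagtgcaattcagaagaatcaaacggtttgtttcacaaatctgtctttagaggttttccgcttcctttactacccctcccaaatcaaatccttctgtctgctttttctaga
HOXB4 upstream, i∆HSA: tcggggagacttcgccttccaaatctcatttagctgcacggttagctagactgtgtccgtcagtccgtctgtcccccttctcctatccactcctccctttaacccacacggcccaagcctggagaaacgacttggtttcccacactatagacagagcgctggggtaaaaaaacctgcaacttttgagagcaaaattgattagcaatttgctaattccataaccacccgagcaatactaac

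The HOXB4 stretch held 9 CpG in 240 bases, whereas the HOXB13 stretch held 2. A TEAD match (GGAATG) was present in the HOXB13 stretch, and these letters occurred in the central 240 bases of 14.5% of all iBRG1 and 11.9% of all i∆HSA peaks.

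The peak density of the HOX windows together could not be told from that of the genome in either list. The iBRG1 list had 7 peaks in 675.4 kb, which is 10.4 peaks per Mb (exact Poisson 95% interval 4.17 to 21.4) against 8.47 in the rest of the genome. The ratio was 1.22 (0.492 to 2.52). The i∆HSA list had 10 peaks, which is 14.8 per Mb (7.10 to 27.2) against 8.87, a ratio of 1.67 (0.800 to 3.07). Both intervals include 1, and with so few peaks they also include ratios well away from it. Counted as base pairs covered instead of peaks, the ratios were 1.58 for iBRG1 and 2.24 for i∆HSA. Set against the rest of the genome within 20 kb of a protein-coding gene, the ratios were 1.01 and 1.34. Without the 20 kb flanks 3 iBRG1 peaks were left and the ratio fell below 1, to 0.687, while for i∆HSA it was 1.97.

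**Figure D1:**
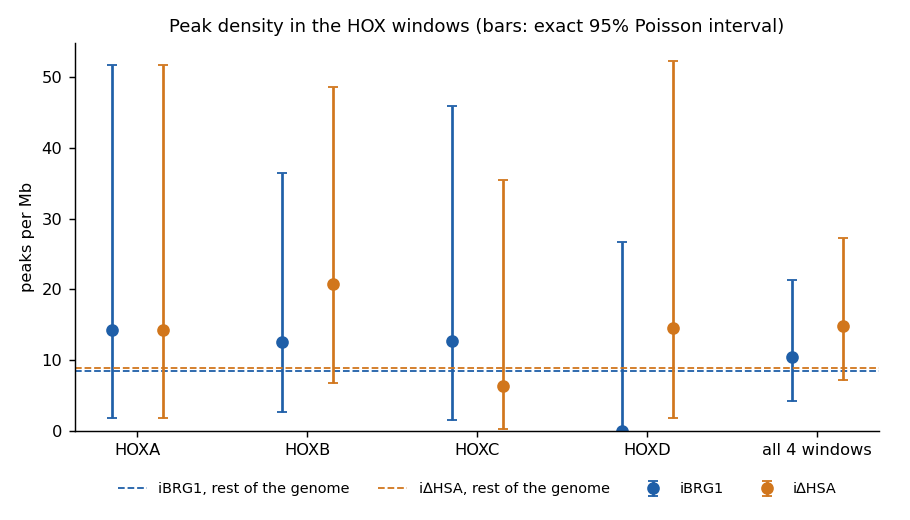
Peaks per Mb in each HOX window and in all 4 together, as points with exact 95% Poisson intervals, for the iBRG1 (blue) and i∆HSA (orange) lists, with dashed lines for the rest of the genome at 8.47 and 8.87 peaks per Mb. Every interval reaches across the line of its own list, and HOXD held 0 iBRG1 peaks.

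The windows differed in how many peaks they held, but only by a few peaks each. With the flanks included, the HOXA window (chr7:27119973-27259710) had 2 peaks in each list. The HOXB window, the longest (chr17:46585888-46826112, 240.2 kb), had 3 iBRG1 and 5 i∆HSA peaks, but all 3 iBRG1 peaks lay in its flanks, outside the listed genes. The HOXC window (chr12:54312615-54469814) had 2 iBRG1 peaks and 1 i∆HSA peak. The HOXD window (chr2:176937449-177075635) had 0 iBRG1 and 2 i∆HSA peaks. Among stretches of the HOXB window's length elsewhere in the genome, 34.1% held at least 3 iBRG1 peaks and 14.7% at least 5 i∆HSA peaks. A count of 0 is common as well: 39.4% of stretches as long as the HOXD window held 0 iBRG1 peaks, and the interval for HOXD allowed up to 26.7 peaks per Mb.

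The iBRG1 list was empty over a wide region around HOXD. The nearest iBRG1 peaks lay 227.6 kb before and 58.7 kb after the HOXD window, leaving 424.4 kb with no peak, and 29.0% of the genome lies in iBRG1 gaps at least that long. The 9 HOXD genes were 80.9 to 176.8 kb from an iBRG1 peak (median 146.8 kb), and 2.43 to 47.0 kb from an i∆HSA peak (median 9.90 kb). HOXD13, a gene of digit and genital development, was the HOXD gene farthest from an iBRG1 peak (176.8 kb) and lay 32.8 kb from an i∆HSA peak.

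**Figure D2:**
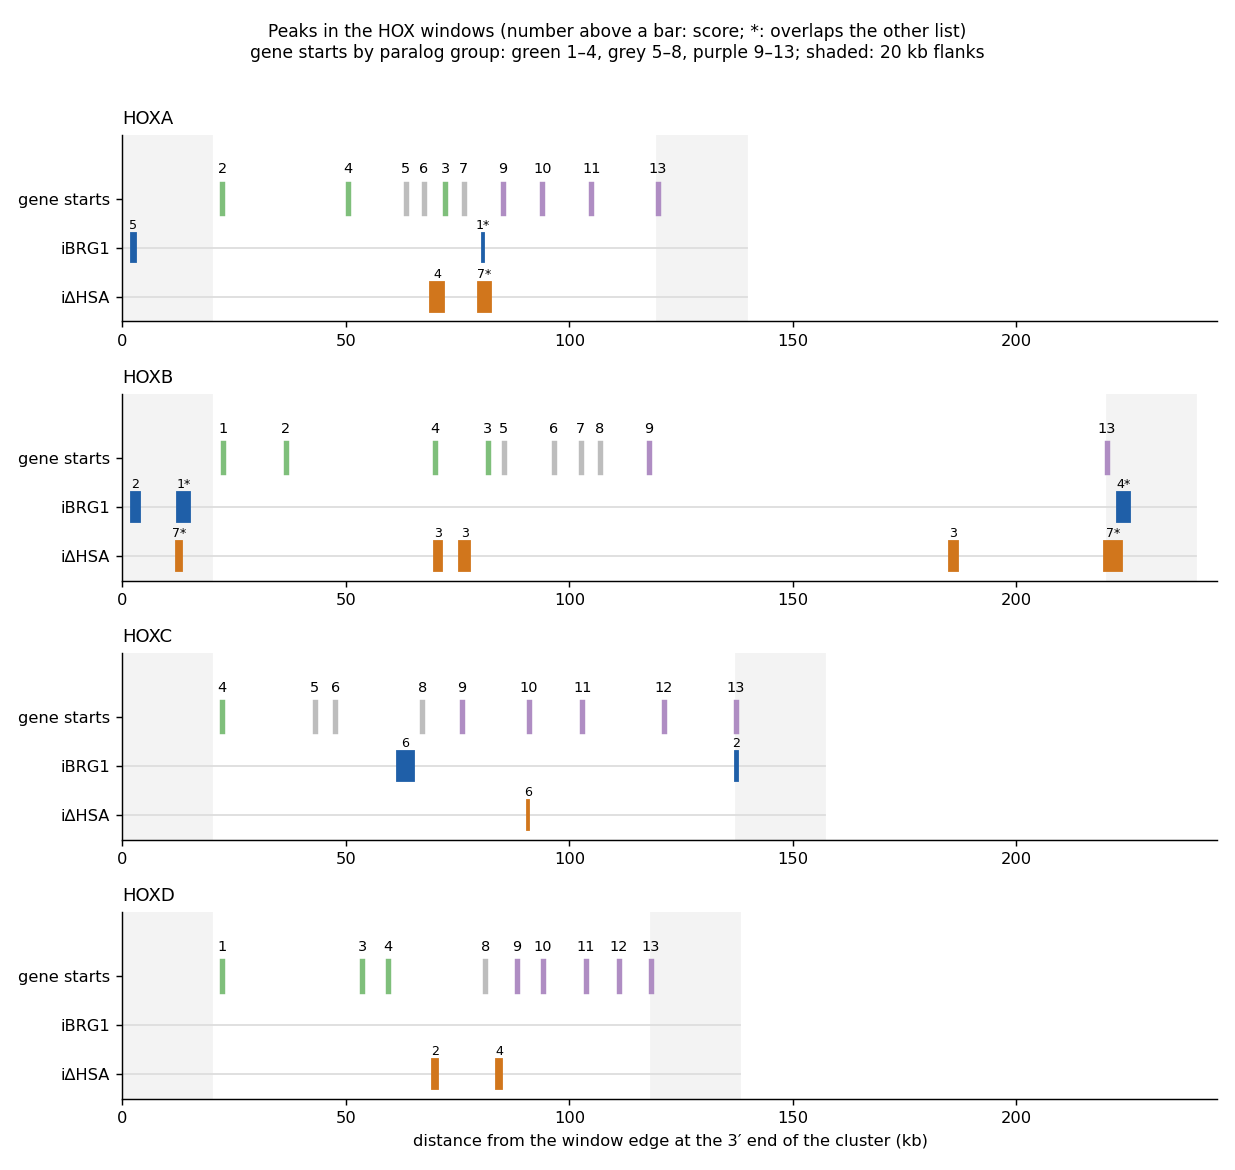
The 4 HOX windows drawn with the 3′ end on the left, in kb from the window edge, with canonical gene starts numbered by paralog group (green 1 to 4, grey 5 to 8, purple 9 to 13), and iBRG1 and i∆HSA peaks as bars to scale with their score above. Stars mark the 3 positions in both lists, 1 in HOXA and 2 in HOXB; HOXA3 and HOXB3 stand out of order because their canonical starts lie upstream of their neighbours.

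Few HOX genes had a promoter peak. In the iBRG1 list it was 1 of 38 genes, HOXC13 (2.63%, Wilson 95% interval 0.466 to 13.5), against 18.2% of all protein-coding genes. In the i∆HSA list it was 6 of 38, HOXA3, HOXA6, HOXB3, HOXB4, HOXB13 and HOXC10 (15.8%, 7.44 to 30.4), against 20.9% of all protein-coding genes. The i∆HSA share was near the background, while the iBRG1 share and its interval lay below it for this 1 kb promoter, though not for the 3 kb promoter described below. Neighbouring HOX genes share peaks and are not independent, so these intervals are too narrow. In all, 0 of 38 HOX genes had a promoter peak in both lists, against 7.69% of protein-coding genes. No interval was computed for this count of 0. In either list it was 7 of 38 (18.4%, 9.22 to 33.4), against 31.4%, and this interval includes the background.

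HOX promoters are rich in CpG, and this was set beside the counts. In the 1 kb on each side of the gene start, 23 of 38 HOX genes (60.5%) had at least 50% GC and a CpG observed/expected ratio of at least 0.6, compared with 46.8% of protein-coding genes. Of these 23 HOX genes, 1 had a promoter peak in the iBRG1 list, against 23.9% of all protein-coding genes with such promoters. In the i∆HSA list it was 3 of 23, against 25.0%. CpG-rich starts made up 4 of the 7 HOX genes with a promoter peak and 19 of the 31 without one.

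Among paralog groups 1 to 4, promoter peaks were listed for HOXB3, HOXB4 and HOXA3, all from the i∆HSA list. HOXB4, a gene known for its effect on blood stem cells, and HOXB3 shared 1 i∆HSA peak at chr17:46655625-46657445 (score 3), which covered the HOXB4 start and an alternative HOXB3 start. The canonical HOXB3 start lay outside this peak. The nearest iBRG1 peak was 54.6 kb from the HOXB4 start. A second i∆HSA peak (chr17:46661197-46663676, score 3) lay within the HOXB3 gene, 1.21 kb from its nearest annotated start. The canonical HOXB3 start was 3.93 kb from this second peak. HOXA3, which patterns the pharyngeal arches, was called through the i∆HSA peak at chr7:27188769-27191925 (score 4), which ended 277 bp short of its canonical start. The same peak covered an alternative start of HOXA6, and the canonical HOXA6 start was 1.38 kb away, so HOXA3 and HOXA6 are not separate calls, and this peak lies in the middle stretch of HOXA and not at its 3′ end.

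The i∆HSA peak at HOXB4 also covered the 110 bp hairpin of miR-10a (chr17:46657200-46657309, minus strand), a microRNA embedded in the HOXB cluster. The nearest iBRG1 peak was 56.1 kb from it. The mature miR-10a-5p is shown with its seed, bases 2 to 8, in capitals, beside the miR-196 pair of the HOX clusters, which share a seed and repress HOX transcripts; sequences are from RefSeq (GRCh38.p14).
hsa-miR-10a-5p: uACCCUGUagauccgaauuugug
hsa-miR-196a-5p: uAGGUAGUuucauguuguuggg
hsa-miR-196b-5p: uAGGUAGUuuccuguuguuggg

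The hairpins of the miR-196 family were not covered. MIR196B in HOXA was 8.41 kb from an iBRG1 peak and 6.77 kb from an i∆HSA peak. MIR196A2 in HOXC was 18.9 kb and 6.17 kb away, respectively, and MIR196A1 in HOXB was 98.6 kb and 46.2 kb away. MIR10B, the HOXD counterpart of MIR10A, was 119.1 kb from an iBRG1 peak and 8.65 kb from an i∆HSA peak.

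At the 5′ end, HOXB13, HOXC10 and HOXC13 carried promoter peaks. HOXB13, a gene of the prostate and hindgut, lay under the i∆HSA peak at chr17:46805571-46809494 (score 7, 3924 bp), which covered the start and 385 coding bases. The iBRG1 peak nearest to HOXB13 (chr17:46808501-46811385, score 4) began 2.39 kb upstream of the start. The peaks had 994 bp in common, 34.5% of the iBRG1 peak and 25.3% of the i∆HSA peak. The iBRG1 list thus had a peak beside this promoter and none on it. HOXC10, active in hindlimb and lumbar tissue, lay under a narrow i∆HSA peak of 478 bp (chr12:54378875-54379352, score 6), with 309 coding bases, and the nearest iBRG1 peak was 24.3 kb from its nearest start. HOXC13, which regulates hair keratins, lay under the iBRG1 peak at chr12:54332051-54332849 (score 2, 799 bp), with 159 coding bases, and its start was 46.3 kb from an i∆HSA peak. No promoter peak was seen at HOXA9, HOXA10, HOXA11, HOXA13, HOXB9, HOXC9, HOXC11, HOXC12 or HOXD9 to HOXD13 in either list.

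**Figure D3:**
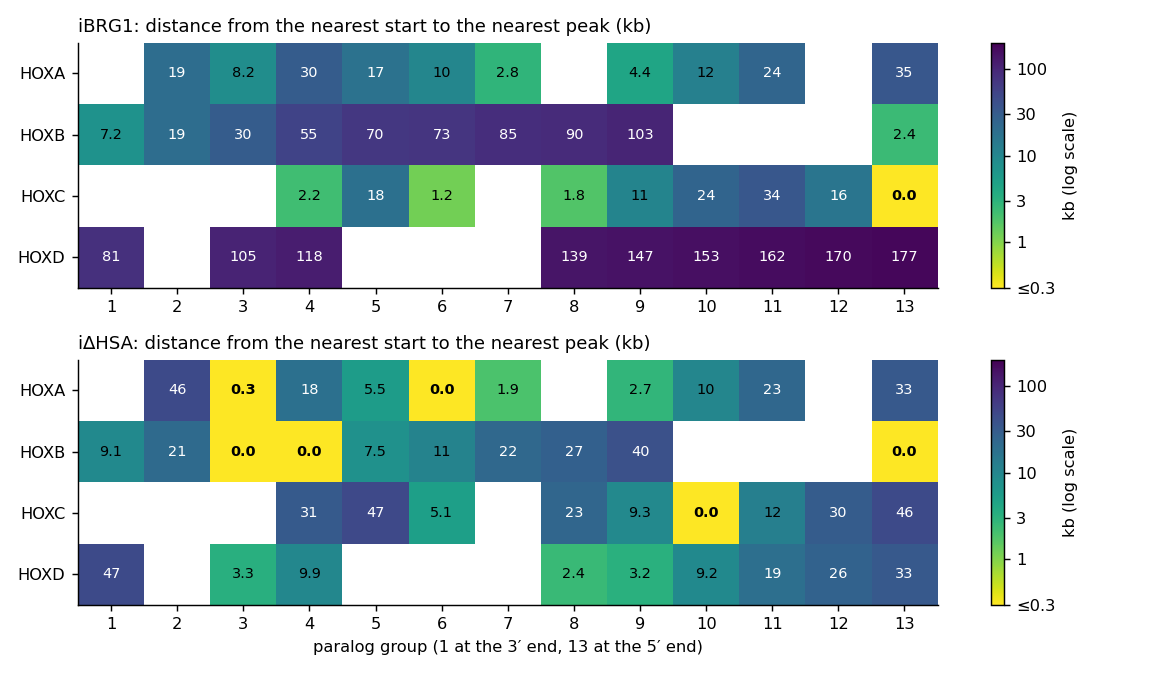
Distance in kb from the nearest annotated start of each of the 38 HOX genes to the nearest iBRG1 (top) or i∆HSA (bottom) peak, with clusters in rows and paralog groups in columns; colour is on a log scale and blank cells have no listed gene. Bold cells, 1 in the iBRG1 grid and 6 in the i∆HSA grid, lie within 1 kb, and the HOXD row is far from any iBRG1 peak (80.9 to 176.8 kb).

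The middle of the clusters, paralog groups 5 to 8, held the highest-scoring iBRG1 peak. It lay at chr12:54404519-54408487 (score 6, 3969 bp), over the last 290 coding bases of HOXC8 and past the end of the gene, inside the annotated span of HOXC6. Its nearest HOXC6 start was 1.19 kb away and the HOXC8 start 1.75 kb away, just outside the 1 kb promoter. An AP-1 match (TGAGTCA or TGACTCA) lay near its midpoint, in the annotated 3′ untranslated part of HOXC8, at chr12:54406507-54406535.
AP-1 match at HOXC8, iBRG1: tattgtatacgTGAGTCAtaataataaaa

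These AP-1 letters were within 100 bp of the midpoint of 8.89% of all iBRG1 peaks and 6.18% of all i∆HSA peaks. No i∆HSA peak lay near HOXC8, whose start was 23.4 kb from one. In HOXA, HOXA7 stood between the lists: its nearest start was 2.81 kb from the shared iBRG1 peak and 1.89 kb from the shared i∆HSA peak. HOXA5, HOXB5 and HOXB6 were 5.47 to 10.8 kb from an i∆HSA peak. In HOXD, the i∆HSA peaks flanked HOXD8. One lay at chr2:176990678-176991992 (score 4) between HOXD9 and HOXD8, 2.43 kb from a HOXD8 start. The other lay at chr2:177004953-177006381 (score 2) inside the long HOXD3 transcript, 3.27 kb from an annotated HOXD3 start.

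Widening the promoter to 3 kb drew in these near misses. The iBRG1 list then had 6 of 38 HOX genes, HOXC13, HOXC6, HOXC8, HOXC4, HOXB13 and HOXA7, against 24.1% of all protein-coding genes called by that rule. HOXC6, HOXC8 and HOXC4 were all called through the same iBRG1 peak at HOXC8, so they are not separate calls. The i∆HSA list had 9 of 38, adding HOXA7, HOXD8 and HOXA9, against 27.3%. HOXA7 and HOXA9 were called through the same i∆HSA peak. HOXA7 and HOXB13 then had a peak in both lists, against 11.4% of all protein-coding genes. In the other direction, a score of at least 5 left 0 HOX genes with a promoter peak in the iBRG1 list, against 6.67% of protein-coding genes. It left 2 in the i∆HSA list, HOXB13 and HOXC10, against 11.8%.

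Peaks were next counted by their midpoint along the clusters. Each cluster was divided midway between the gene starts of neighbouring classes, using for each gene its 3′-most coding start, which keeps the genes in paralog order. In the stretches of groups 1 to 4 (156.7 kb, 11 genes) there were 0 iBRG1 and 2 i∆HSA peaks. In the stretches of groups 5 to 8 (111.3 kb, 11 genes) there were 2 and 3. In the stretches of groups 9 to 13 (247.4 kb, 16 genes) there were 0 and 3. Per 100 kb the iBRG1 values were 0 (exact Poisson 95% interval 0 to 2.36), 1.80 (0.218 to 6.49) and 0 (0 to 1.49), and the i∆HSA values were 1.28 (0.155 to 4.61), 2.70 (0.556 to 7.88) and 1.21 (0.250 to 3.54). The intervals overlapped throughout, so no end of the clusters was distinguished from another in either list. The flanks held 5 of the 7 iBRG1 midpoints and 2 of the 10 i∆HSA midpoints; the HOXC13 and HOXB13 promoter peaks are counted in them, because their midpoints lie upstream of the last gene.

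Outside the listed genes, the flanks beyond the 3′ ends held the remaining iBRG1 peaks. One lay at chr7:27121904-27122923 (score 5), 17.1 kb beyond HOXA2. In HOXB, one lay at chr17:46587845-46589779 (score 2), 16.1 kb beyond HOXB1, and the other at chr17:46597992-46601074 (score 1), 4.81 kb beyond HOXB1. The last one shared 1160 bp with the i∆HSA peak at chr17:46597881-46599151 (score 7), which is 91.3% of the i∆HSA peak. One more i∆HSA peak lay in the wide interval between HOXB9 and HOXB13 (chr17:46770900-46772748, score 3), 29.4 kb from HOXB13.

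The position of peaks relative to HOX genes was counted in each list. Of the 7 iBRG1 window peaks, 2 overlapped a listed HOX gene and 1 lay within 1 kb of a HOX start (14.3%, Wilson 95% interval 2.57 to 51.3), and 14.4% of all iBRG1 peaks lay within 1 kb of a protein-coding start. Of the 10 i∆HSA window peaks, 7 overlapped a listed HOX gene and 4 lay within 1 kb of a HOX start (40.0%, 16.8 to 68.7), against 15.9% of all i∆HSA peaks. The intervals of these shares overlapped between the lists. The windows were drawn around 38 genes in 675.4 kb, so gene starts are denser there than over the genome. The shares over all peaks are thus not a matched background. For overlap with a gene no share over all peaks was computed, so the counts of 2 and 7 stand without a background. Counted by gene, 3 of 38 HOX genes had an iBRG1 peak in the gene body and 8 had an i∆HSA peak, compared with 37.7% and 41.1% of protein-coding genes, but HOX genes are short (median 4.22 kb against 27.2 kb). The median distance from the gene start to a peak was 27.8 kb for iBRG1 and 18.0 kb for i∆HSA over the HOX genes, and 29.3 kb and 23.3 kb over all protein-coding genes.

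Other transcripts of the clusters were taken from a list of 27, of which 25 were annotated in the windows. Of these, 0 had a promoter peak in the iBRG1 list and 2 in the i∆HSA list, and the MIR10A hairpin under the i∆HSA peak at HOXB4, described above, is not among the 25. Counting the 17 long non-coding RNA genes alone, it was 0 against 7.48% of all such genes in the iBRG1 list and 2 against 8.07% in the i∆HSA list. Those 2 were HOXA-AS3, under the HOXA3 and HOXA6 peak, and HOXC-AS3, antisense to HOXC10 under the HOXC10 peak, so neither is a call of its own. HOTAIR, a HOXC long non-coding RNA that has been linked to Polycomb, was 27.3 kb from an iBRG1 peak and 10.1 kb from an i∆HSA peak. HOTTIP, at the 5′ tip of HOXA, was 37.5 kb and 35.9 kb away, and HOTAIRM1, at the 3′ end of HOXA, 12.3 kb and 45.4 kb. EVX2, the homeobox gene next to HOXD13, was 185.6 kb from an iBRG1 peak and 24.1 kb from an i∆HSA peak.

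The 3 positions common to the lists were the HOXA7 to HOXA9 interval and both ends of HOXB. They were 3 of 7 iBRG1 peaks (42.9%, Wilson 95% interval 15.8 to 75.0) and 3 of 10 i∆HSA peaks (30.0%, 10.8 to 60.3), compared with 20.5% and 19.6% of all peaks, and the intervals include these values. At HOXA the iBRG1 peak (chr7:27200362-27200688, score 1, 327 bp) lay wholly inside the i∆HSA peak (chr7:27199446-27202332, score 7, 2887 bp), of which it covered 11.3%. The boundary between the middle and the 5′ stretch of HOXA crosses this position, so the iBRG1 midpoint was counted in the middle and the i∆HSA midpoint in the 5′ stretch. When at least 50% of each peak had to be covered by the other, 0 HOX peaks were shared.

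HOX window peaks had ordinary scores. The median was 2 (quartiles 1.5 and 4.5, range 1 to 6) in the iBRG1 windows and 2 (quartiles 1 and 5) over all iBRG1 peaks, and it was 4 (quartiles 3 and 6.75, range 2 to 7) in the i∆HSA windows and 4 (quartiles 2 and 7) over all i∆HSA peaks. The highest iBRG1 score, 6 at HOXC8, was reached by 21.7% of the list. The highest i∆HSA score, 7 at HOXA9, beyond HOXB1 and at HOXB13, was reached by 27.2%. Scores of at least 5 were held by 2 of the 7 iBRG1 and 4 of the 10 i∆HSA window peaks, compared with 27.2% and 41.2% of all peaks. All 3 i∆HSA peaks with the score of 7 were at shared positions.

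**Figure D4:**
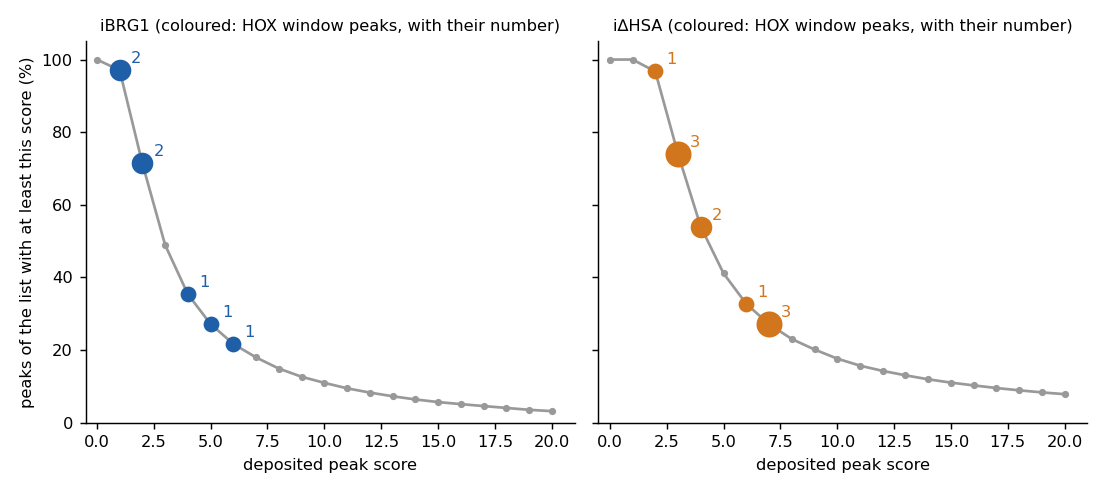
Percentage of all peaks of a list with at least a given deposited score (grey), for iBRG1 (left) and i∆HSA (right), with HOX window peaks placed on the curve as coloured points, sized and numbered by how many have that score. HOX peaks reach scores of 6 and 7 and none lies in the tail of high scores.

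The medians of GC and CpG were higher in HOX window peaks than over all peaks of each list, though some window peaks lay below the medians of all peaks. Gene starts are denser in the windows than over the genome, so all peaks are not a matched background here either. Median GC was 45.4% (range 37.5 to 67.6) for the iBRG1 window peaks and 38.6% over all iBRG1 peaks, and 51.1% (39.3 to 60.5) against 38.2% for i∆HSA. The median CpG observed/expected ratio was 0.345 against 0.194 for iBRG1 and 0.493 against 0.225 for i∆HSA. Among iBRG1 peaks, the HOXC13 promoter (0.661) and the HOXA7 to HOXA9 peak (0.670) stood far above the others, which were at 0.112 to 0.427. Among i∆HSA peaks, HOXC10 was highest (0.754), and the peak beyond HOXB1 was lowest (0.206). Median width was 1935 bp in the iBRG1 windows and 1835 bp in the i∆HSA windows, against 1321 and 1318 bp over all peaks, with the narrowest HOX peaks at 327 and 478 bp.

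**Figure D5:**
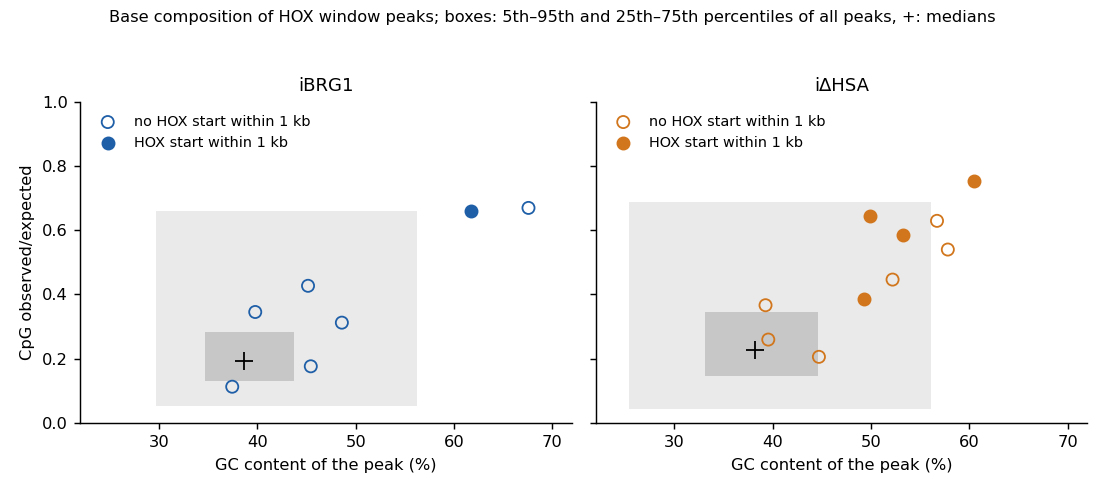
GC content (%) against the CpG observed/expected ratio of each HOX window peak, filled where a HOX start lies within 1 kb, for iBRG1 (left, 7 peaks) and i∆HSA (right, 10 peaks); grey boxes span the 5th to 95th and 25th to 75th percentiles of all peaks and the cross marks their medians. The HOXC13 peak (61.7% GC) and the HOXC10 peak (60.5% GC) are among the peaks outside the wider box.

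Motif matches within 100 bp of peak midpoints were few, and each count is a description. TEAD letters were in 3 of 7 iBRG1 window peaks and 2 of 10 i∆HSA window peaks, against 12.2% and 10.2% of all peaks. They were at HOXC8, at HOXC13 and beyond HOXA2 in the iBRG1 list, and at HOXB13 and between HOXD9 and HOXD8 in the i∆HSA list. SP/KLF letters were in 2 of 7 iBRG1 peaks, at HOXC13 and between HOXA7 and HOXA9, and in 0 of 10 i∆HSA peaks, against 4.63% and 5.49%. A GAGA repeat (GAGAGAG), named after the fly factor of Polycomb and trithorax elements, was in 1 i∆HSA peak, at HOXC10, against 3.84% of all i∆HSA peaks. AP-1 letters were in 1 iBRG1 peak, at HOXC8. The ETS (CCGGAAG), CRE (TGACGTCA), HOX-PBX, homeodomain (TAATTA), YY1 (GCCATNTTG), CTCF and NRF1 patterns were in 0 window peaks of either list by this measure. Their shares over all peaks were at most 9.49% (iBRG1) and 10.1% (i∆HSA), both for homeodomain letters, so a count of 0 among 7 or 10 peaks shows no difference from them. All motifs were searched on both strands.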

How the data were processed

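CUT&RUN with an antibody against V5 was performed by the authors on 2 replicates each of iBRG1 and i∆HSA SW-13 cells. As described in the study's methods, the authors trimmed reads with Cutadapt, aligned them with Bowtie2, removed duplicates with Picard, used SAMtools, called peaks with MACS2 (version 2.2 in the submitters' processing notes, which also name hg19), took out peaks seen in controls and set a minimum score. The deposited files are 1 peak list per construct, with each peak's start, end, name and score. The score is the authors' value and its scale and normalization are not stated. Whether replicates were pooled is not stated in the sources used here. Peak names end in the caller's serial number. Duplicate removal, the control filter and the score minimum decide which sites can be listed, and scores under that minimum are present in both lists.

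Positions are 1-based in GRCh37, and 0 peaks ended beyond a chromosome. Genes are from GENCODE release 44 mapped to GRCh37. The annotation used has no entry for MIR10A, whose RefSeq hairpin was matched to GRCh37 by sequence. Overlap meant at least 1 bp. Density used bases without assembly gaps. Shares have Wilson and counts have exact Poisson 95% intervals. Analyses were run in Python 3.11.15 (scipy 1.17.1, numpy 2.4.6, matplotlib 3.10.9, pandas 2.3.3), and promoter calls were tested on simulated data. Every gene with a promoter peak, the 5 highest-scoring window peaks per list and every shared peak are named. Members, lists and motifs were chosen with earlier results of these data known. The alternatives tried are given at the end. Some sequences are not reported here.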

Additional observations from a re-analysis of the deposited data

How the results depend on the processing

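With 7 and 10 peaks, most counts rest on single peaks. No paired analysis was possible because the peak lists carry no value of a single replicate, and leaving out a replicate was not possible for the same reason. Of 58 recomputed values for the comparisons, 36 stayed close to the value reported, and the others follow. Some of the 36 could not have moved. No window peak was under 25% GC, so that filter removed none, and a stricter rule cannot lower a count of 0. The tally also holds density ratios from the serial numbers described below, which were not planned. Close meant within 1.5 times for counts and median scores, within the counting interval for shares, and within it and on the same side of 1 for density ratios. Of 22 motif counts under a window of 250 bp on each side, 14 stayed within 1.5 times.

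Without the flanks, iBRG1 window peaks were 3 and their density ratio turned to 0.687. At a score of at least 5, window peaks were 2 (iBRG1) and 4 (i∆HSA), and promoter genes were 0 (iBRG1), 2 (i∆HSA) and 2 (either list). Among the 5000 highest-scoring peaks of each list (ties kept), window peaks were 1 and 0. With promoters of 3 kb, HOX genes with a peak were 6 in the iBRG1 list, 2 in both lists and 13 in either list. The shared percentage was 0 in both lists under a reciprocal overlap of 50% and at a score of at least 5 in both lists. By end of cluster, requiring a score of 5 or more gave 0 i∆HSA peaks at the 3′ end, and 1 iBRG1 and 0 i∆HSA peaks in the middle. Counting any overlap of 1 bp gave 5 i∆HSA peaks in the middle, and 2 iBRG1 and 5 i∆HSA peaks at the 5′ end. The depth reached is unknown and sets how many weak peaks can be seen.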

Other observations

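Peak names in both lists end in serial numbers that rise along each chromosome, and the numbers reach 340229 in the iBRG1 list and 286854 in the i∆HSA list, so the 24212 and 25371 deposited peaks are 7.12% and 8.85% of the numbers given. If the caller numbered its calls without breaks, the numbers between the nearest kept peaks outside a window count the calls made there, kept or not. This reading was chosen after seeing the data. Around HOXA, HOXB, HOXC and HOXD the iBRG1 numbers ran through 29, 63, 39 and 54 calls, and the i∆HSA numbers through 34, 91, 53 and 68. The HOXD stretch, which has 0 deposited iBRG1 peaks, thus held 54 numbered iBRG1 calls in 424.4 kb.

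Over the 4 stretches there were 141.8 numbered iBRG1 calls per Mb against 119.0 over the genome, and 181.5 numbered i∆HSA calls per Mb against 100.3. The stretches total 1305 kb (iBRG1) and 1355 kb (i∆HSA), while the windows total 675.4 kb. These densities therefore include much neighbouring sequence and do not describe the HOX windows alone. Sequence near protein-coding genes was not used as a background for them. The deposited peaks inside the stretches were 7 of 185 iBRG1 calls (3.78%) and 10 of 246 i∆HSA calls (4.07%). These shares are low by construction, since each stretch was extended to the next kept peak. With the 2 bounding peaks of each stretch counted in, they were 15 of 193 (7.77%) and 18 of 254 (7.09%).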
